A study of Mus musculus with 12 samples.

Results

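Complement is a cascade of blood and tissue proteins, and 9 of its genes were followed with age in RNA from brain myelin. The 9 genes were chosen by symbol from a table of 21937 genes, and all 9 were found in it. They are C1qa, C1qb and C1qc, which encode the chains of the recognition protein C1q, and C1ra, which encodes a protease bound to C1q. C3 and C4b encode the central components, Serping1 encodes the C1 inhibitor, and C3ar1 and C5ar1 encode the receptors for the fragments C3a and C5a. The RNA came from a light membrane fraction enriched for myelin and prepared from brains of male c57Bl6/N mice of WT genotype. Mice were at postnatal day 18 (P18) or 75 (P75), or aged 6 or 24 months, and each age had 3 samples, which gives 12. All samples share the strain, the sex and the genotype, and the labels name no treatment of the animals. The labels do not say whether the samples of an age came from separate animals or from pooled ones, so p-values measure only the spread between these samples, which may be technical.

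In the classical pathway, C1q binds its target and activates the proteases C1r and C1s, which cleave C4 and C2 to form an enzyme that cleaves C3. Fragments of C3 and C4 stay on the target and mark it for phagocytes, while the released C3a and C5a signal through their receptors. In mouse brain, microglia are the main source of C1q, and C1q and C3 are known for marking synapses that microglia then remove during development.

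Reads in genes numbered 20299052 to 27214385 per sample, and 16949 to 17261 genes had at least 1 read. Testing was limited to genes with a value of 10 or more in at least 3 samples, so 14987 genes were tested, the 9 complement genes among them. The 10 genes of a list of oligodendrocyte and myelin markers were all detected, and together held 17.2% ± 6.05 of all values at P18, 6.61% ± 1.35 at P75, 7.54% ± 2.02 at 6 months, with 7.53% ± 1.12 at 24 months (SD, n = 3 each). None of the 86 genes in 9 lists of cell type markers was at 0 in all 12 samples, but 18834 of the 21937 genes in the table reached that mark. All genes of the lists of microglia, astrocytes, neurons, endothelium and choroid plexus passed the limit for testing, so the fraction also held RNA of these cell types. Of the 8 blood myeloid genes, 2 passed it. The count of genes called between 24 months and 6 months was 2876 over all samples. It was 3963 without P18 replicate 3 and 1244 without 24 months replicate 2, the highest and lowest counts on leaving out a sample.

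The summed value of the 9 complement genes was 0.0121% ± 0.00181 of all values at P18, 0.0178% ± 9.04e-04 at P75, 0.0221% ± 0.00190 at 6 months, with 0.0445% ± 0.00662 at 24 months (SD, n = 3 each). All 9 genes differed at some age (limma moderated F test, Benjamini-Hochberg adjusted p from 7.71e-10 for Serping1 to 0.00193 for C5ar1), which was also true of 77.4% of all genes tested. Their values at each age are in normalised read counts, which are read counts divided by 1 size factor per sample. Because the fraction is a bulk sample, more cells of a type and more RNA per cell cannot be told apart.

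**Figure D1:**
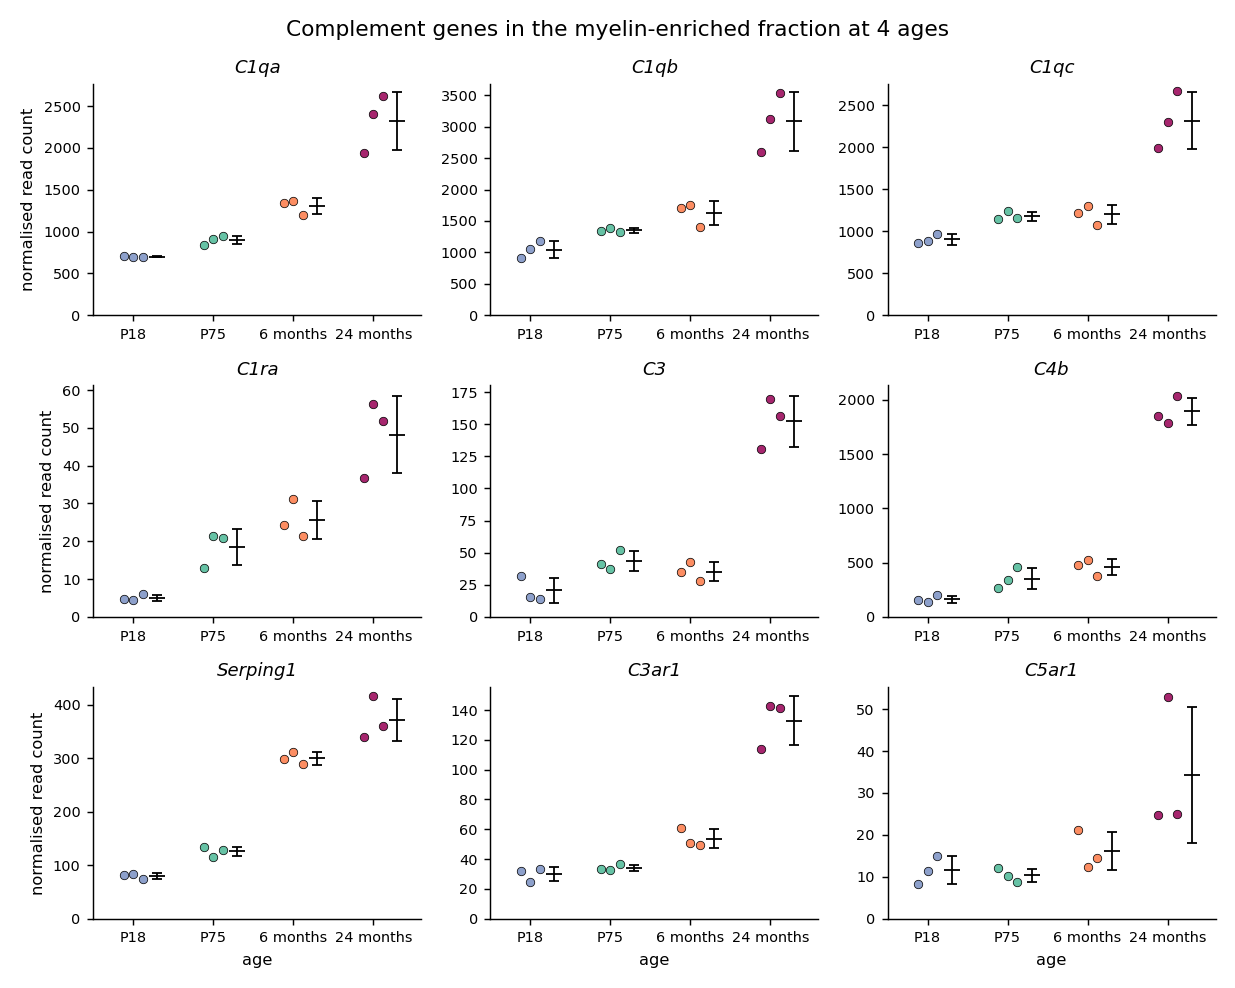
Normalised read counts of the 9 complement genes (vertical axes, each from 0) in the 3 samples of each age (points), with the mean and SD beside them. In all 9 genes the 3 samples at 24 months lie above the 3 samples at P75 and at 6 months, and C4b reaches 1792 to 2038 at 24 months.

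Between 24 months and 6 months, 8 of the 9 genes rose, none fell, and Serping1 did not pass (limma on log2(value + 1), adjusted p under 0.05), against 10.8% of all tested genes called higher. In 9 of 9 genes the samples of 24 months lay above those of 6 months without overlap, against 23.2% of all tested genes. Between P75 and P18, 7 of 9 rose, none fell, and C3ar1 and C5ar1 did not pass, against 21.7% of all genes called higher. The samples of P75 lay above those of P18 without overlap in 7 of 9 genes, against 24.7% of all genes.

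The comparison of 6 months with P75 gave fewer calls, with C1qa, Serping1 and C3ar1 higher, none lower and 6 of 9 not passing, against 27.1% of all genes called higher. There the samples were apart, with 6 months higher, in 6 of 9 genes, against 31.7% of all genes. The number of genes called at 6 months was 5, with C1qb and C4b added, when the fit held only those 6 samples, and likewise without P18 replicate 3 or without 6 months replicate 3. No complement gene of the 9 was lower in any of the 4 comparisons at an unadjusted p under 0.05, and edgeR and DESeq2 called 0 lower. Across the whole adult span, 24 months against P75, all 9 genes rose and all 9 were apart, against 25.0% of all genes called higher and 29.2% apart. This last comparison is the sum of the preceding 2 steps in the same fit, and neighbouring comparisons have the middle age in common, so they are not independent.

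The median log2 fold change of the 9 genes was 0.39 at P75 against P18, 0.47 at 6 months against P75, 0.94 at 24 months against 6 months and 1.55 at 24 months against P75. Over all tested genes the medians were 0.017, 0.003, 0.03 and -0.003 in the same order of comparisons. Fold changes here are on the log2(value + 1) scale, which understates the change of genes with low values such as C1ra and C5ar1.

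**Figure D2:**
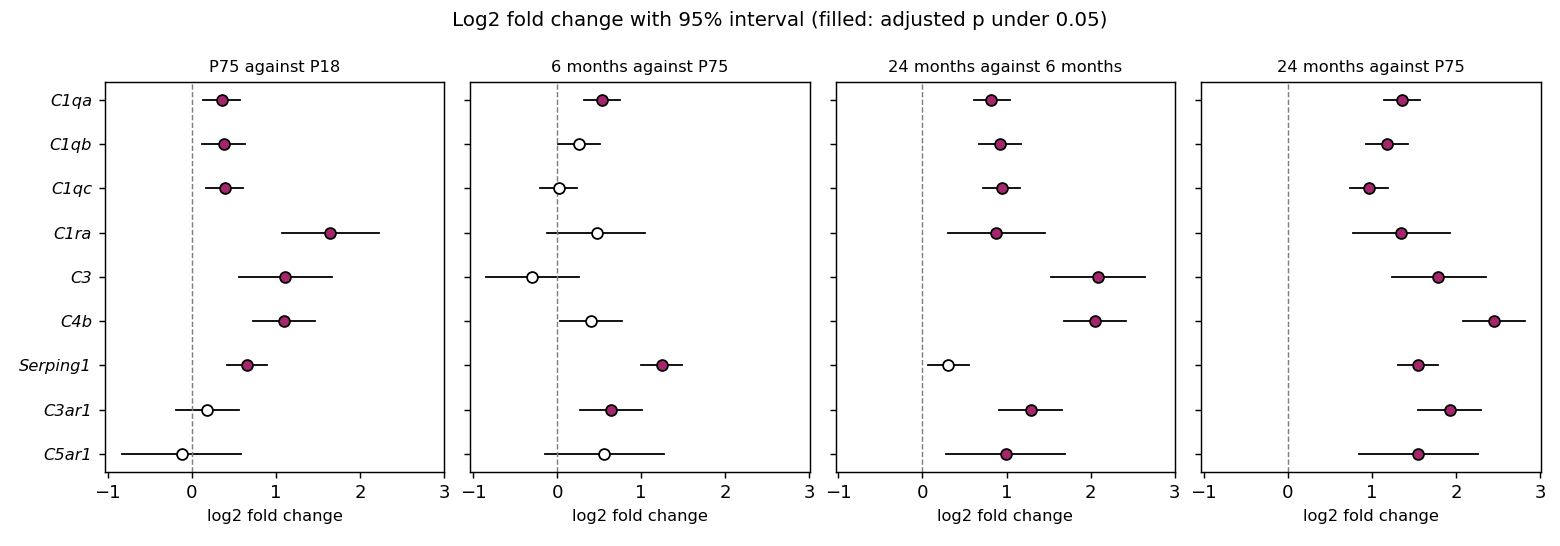
Log2 fold change (horizontal axes) of each complement gene in 4 comparisons, the later age against the earlier one, with 95% intervals as lines and filled points where the adjusted p was under 0.05. All 9 points are filled at 24 months against P75, and C3 and C4b lie near 2 at 24 months against 6 months, at 2.09 and 2.05.

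The genes of the C1q chains, whose products A, B and C assemble together into C1q, rose at P75 and again at 24 months. C1qa had normalised read counts of 708, 690.4 and 701 at P18, 843, 909.6 and 946 at P75, 1341, 1370.5 and 1197 at 6 months, and 1934, 2410.0 and 2615 at 24 months. The 4 ages did not overlap in C1qa, and each later age lay above the one before it. C1qa rose by a log2 fold change of 0.36 ± 0.10 (SE) at P75 against P18 (adjusted p = 0.00975), by 0.53 ± 0.10 at 6 months against P75 (adjusted p = 3.82e-04) and by 0.82 ± 0.10 at 24 months against 6 months (adjusted p = 2.08e-04, limma).

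C1qb had counts of 905, 1049 and 1179 at P18, 1333, 1389.8 and 1322 at P75, 1706, 1758 and 1407 at 6 months, and 2600.5, 3115 and 3537 at 24 months. Its ages did not overlap either, although the lowest sample of 6 months, replicate 3, stood close to the P75 samples. C1qb rose by 0.38 ± 0.12 at P75 against P18 (adjusted p = 0.0188), a call that did not hold when P18 replicate 1 (0.28, adjusted p = 0.0968) or P75 replicate 2 (0.35, adjusted p = 0.0579) was left out. At 6 months against P75 the log2 fold change of C1qb was 0.26 ± 0.12 and missed the threshold (adjusted p = 0.0756). At 24 months it was 0.92 ± 0.12 above 6 months (adjusted p = 2.79e-04).

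For C1qc the counts were 854, 878 and 971 at P18, 1144, 1239 and 1152 at P75, 1220.3, 1296 and 1077 at 6 months, and 1983, 2299 and 2663 at 24 months. P75 and 6 months overlapped in C1qc, while P18 lay below both and 24 months above both. C1qc rose by 0.39 ± 0.10 at P75 against P18 (adjusted p = 0.00729) and by 0.94 ± 0.10 at 24 months against 6 months (adjusted p = 9.97e-05), and its difference at 6 months against P75 was 0.02 ± 0.10 (95% interval -0.20 to 0.24, adjusted p = 0.885).

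The chains therefore did not keep a fixed ratio, which can be read within each sample and does not depend on the size factors. Per kilobase of exon, C1qa stood at 1.96 to 2.06 times C1qc in the samples of 6 months, against 1.36 to 1.53 times in those of P75, with no overlap. C1qb stood at 2.32 to 2.48 times C1qc at 6 months, against 1.99 to 2.07 times at P75, again with no overlap. At 24 months C1qa stood at 1.81 to 1.95 times C1qc, just below the samples of 6 months, and C1qb stood at 2.33 to 2.41 times C1qc, within their range. These ratios are given as a description of 3 samples per age, with no test.

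The promoters of C1qb and C1qc, whose starts lie near each other on the minus strand of chromosome 4, are shown because the genes moved together (root mean square difference of 0.12 log2 units over the 12 samples after each gene's mean was removed). The sequences are those of RefSeq on GRCm38.p6, from 250 bases before to 50 bases after the start, at chr4:136886151-136886450 for C1qb and chr4:136892865-136893164 for C1qc, both on the minus strand. Capitals mark matches to GAGGAA, the core of sites bound by PU.1, a transcription factor of myeloid cells that microglia need.
C1qb: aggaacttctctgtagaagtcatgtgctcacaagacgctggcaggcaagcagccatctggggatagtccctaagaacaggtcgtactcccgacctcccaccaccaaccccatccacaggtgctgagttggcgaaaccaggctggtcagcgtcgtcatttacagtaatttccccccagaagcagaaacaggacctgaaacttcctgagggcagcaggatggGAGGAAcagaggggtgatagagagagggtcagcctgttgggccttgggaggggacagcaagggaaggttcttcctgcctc
C1qc: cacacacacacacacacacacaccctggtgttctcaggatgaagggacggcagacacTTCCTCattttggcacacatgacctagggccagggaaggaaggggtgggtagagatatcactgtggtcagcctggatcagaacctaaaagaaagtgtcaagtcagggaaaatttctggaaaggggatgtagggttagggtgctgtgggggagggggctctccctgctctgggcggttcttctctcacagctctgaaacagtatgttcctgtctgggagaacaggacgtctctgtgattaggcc
In C1qb the match began 30 bases before the start on the gene's own strand, and in C1qc it began 193 bases before the start on the opposite strand, where it reads TTCCTC. Such a match was present in 28.3% of 32851 RefSeq promoters of this length when both strands were read, so the letters alone set neither gene apart.

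C1ra, the protease that C1q activates, had the lowest level per kilobase of the 9 genes at P18. Its counts were 4.75, 4.52 and 6.03 at P18, which rest on 4, 4 and 6 reads, then 13.03, 21.3 and 21.0 at P75, 24.4, 31.1 and 21.4 at 6 months, and 36.65, 56.2 and 51.8 at 24 months. The ages did not overlap, but the lowest sample of 6 months stood next to the highest P75 sample. C1ra rose by 1.65 ± 0.28 at P75 against P18 (adjusted p = 2.05e-04), and its difference at 6 months against P75 was 0.47 ± 0.28 (adjusted p = 0.165).

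At 24 months C1ra was 0.88 ± 0.28 above 6 months (adjusted p = 0.0359). That call did not hold under quantile normalization (0.70, adjusted p = 0.0799) or without any of the 3 samples of 6 months or either of replicates 2 and 3 of 24 months, with adjusted p between 0.0513 and 0.141 on leaving out each of these. Against P75 the rise at 24 months was 1.35 ± 0.28 (adjusted p = 9.07e-04). In the RefSeq promoter of C1ra the interferon-gamma activated site TTCNNNGAA, present in 8.3% of promoters on either strand, matched 32 bases after the start, and GAGGAA matched 44 bases after it. Mouse C1ra has a close paralog, C1rb, which was at 0 in all 12 samples, and reads shared by the pair may have been dropped in the counting.

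C3 and C4b, whose products are cleaved and bind to targets, had the largest rises of the 9 genes at 24 months against 6 months. C4b had counts of 153, 136 and 199.9 at P18, 267, 337 and 459 at P75, 479, 523 and 380.5 at 6 months, and 1851, 1792 and 2038 at 24 months. P75 and 6 months overlapped, P18 lay below both, and the samples at 24 months stood far above all others.

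C4b rose by 1.10 ± 0.17 at P75 against P18 (adjusted p = 1.33e-04) and by 2.05 ± 0.17 at 24 months against 6 months (adjusted p = 1.68e-05), a 4.13-fold rise (95% interval 3.20 to 5.34). Its step at 6 months against P75 was 0.40 ± 0.17 (adjusted p = 0.0637), and it passed without P75 replicate 3 (0.61, adjusted p = 0.00750). By fold change C4b ranked 16 of the 14987 tested genes at 24 months against 6 months. Its paralog C4a had means of 18.1 at 24 months and 10.1 at 6 months, so reads shared by C4a and C4b leave both levels uncertain.

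C3 had counts of 32.1, 15.8 and 14.1 at P18, 41.1, 37.1 and 52.0 at P75, 34.9, 42.6 and 28.2 at 6 months, and 131, 169.8 and 156 at 24 months. P18 replicate 1 was high for its age, P75 and 6 months overlapped, and the samples of 24 months stood apart above all others. C3 rose by 1.11 ± 0.26 at P75 against P18 (adjusted p = 0.00306) and by 2.09 ± 0.26 at 24 months against 6 months (adjusted p = 2.25e-04), where it was 4.26-fold higher (95% interval 2.90 to 6.27) and ranked 14 of all tested genes by fold change. At 6 months against P75 its difference was -0.30 ± 0.26 (adjusted p = 0.358).

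The promoters of C3 and of C3ar1, the receptor for its fragment C3a, are shown as the ligand and receptor genes that both rose at 24 months. They are RefSeq sequences on GRCm38.p6, at chr17:57228087-57228386 for C3 and chr6:122856108-122856407 for C3ar1, both on the minus strand. Capitals mark a match to the AP-1 site TGANTCA, which binds Fos and Jun proteins.
C3: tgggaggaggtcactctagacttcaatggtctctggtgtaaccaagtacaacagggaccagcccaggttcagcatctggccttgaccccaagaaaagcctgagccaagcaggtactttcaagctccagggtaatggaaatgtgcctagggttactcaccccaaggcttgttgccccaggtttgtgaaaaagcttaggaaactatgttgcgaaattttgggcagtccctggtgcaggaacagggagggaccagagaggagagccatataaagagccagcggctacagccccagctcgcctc
C3ar1: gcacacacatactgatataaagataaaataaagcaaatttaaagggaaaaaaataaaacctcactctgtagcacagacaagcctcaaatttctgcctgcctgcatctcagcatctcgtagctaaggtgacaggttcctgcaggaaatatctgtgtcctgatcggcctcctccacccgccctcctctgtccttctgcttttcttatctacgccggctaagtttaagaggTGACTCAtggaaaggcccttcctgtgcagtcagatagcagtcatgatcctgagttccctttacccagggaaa
The match in C3ar1 began 22 bases before the start, and 7.8% of promoters hold such a site on either strand. None of the 3 motifs searched (GAGGAA, TTCNNNGAA and TGANTCA) was found in this window of C3 or of C5ar1. Of the 9 genes, 6 had a promoter in the RefSeq table.

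Serping1 encodes the C1 inhibitor, which inactivates C1r and C1s and so restrains the classical pathway at its start. Its counts were 80.8, 83.6 and 73.3 at P18, 133, 116 and 128 at P75, 297, 312 and 289 at 6 months, and 339, 415 and 359 at 24 months. No ages overlapped, and the widest gap lay between P75 and 6 months. Serping1 rose by 0.66 ± 0.12 at P75 against P18 (adjusted p = 2.95e-04) and by 1.25 ± 0.12 at 6 months against P75 (adjusted p = 5.65e-07), a 2.37-fold rise. Of 10 mural cell and fibroblast markers, which summed to 4184 to 4462 at 6 months, against 2355 to 2936 at P75, 3 rose and none fell in that step, against 27.1% of all tested genes called higher. Of 8 choroid plexus markers, 7 rose and none fell in the same step, with sums of 27762 to 32112 at 6 months and 23678 to 29005 at P75 that overlapped, and all 8 rose at 24 months against P75, where 25.0% of all tested genes were called higher. The part of these lists in the Serping1 values was not tested.

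At 24 months against 6 months Serping1 differed by 0.30 ± 0.12, which missed the threshold (adjusted p = 0.0727), although edgeR on the recovered reads passed it (0.32, adjusted p = 0.0392), as did the fit of these 6 samples alone (adjusted p = 0.0415). C3 and C4b thus had their largest step at 24 months and Serping1 at 6 months, in terms of the fitted values. Whether the steps differ between the genes was not tested.

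Among the receptors, C3ar1, which binds C3a on microglia and other myeloid cells, had counts of 32.1, 24.9 and 33.15 at P18, 33.1, 32.45 and 36.5 at P75, 60.9, 50.6 and 49.6 at 6 months, and 114, 143 and 142 at 24 months. P18 and P75 overlapped, and the later ages each lay above the one before. C3ar1 differed by 0.18 ± 0.18 at P75 against P18 (adjusted p = 0.437), and rose by 0.64 ± 0.18 at 6 months against P75 (adjusted p = 0.00612) and by 1.29 ± 0.18 at 24 months against 6 months (adjusted p = 4.22e-04).

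C5ar1, which binds C5a on myeloid cells, stayed low, with counts of 8.32, 11.3 and 15.1 at P18, 12.03, 10.2 and 8.84 at P75, 21.1, 12.4 and 14.6 at 6 months, and 24.8, 53.0 and 25.0 at 24 months. P18 overlapped both P75 and 6 months, and 24 months replicate 2 was far above the other samples of that age. C5ar1 rose by 1.55 ± 0.33 at 24 months against P75 (adjusted p = 0.00138). Its rise at 24 months against 6 months, 0.99 ± 0.33 (adjusted p = 0.0486), lay at the edge of the threshold and was lost in 13 of 21 alternatives, with an adjusted p of up to 0.241 without 24 months replicate 2. The differences at the earlier steps were -0.12 ± 0.33 (P75 against P18, adjusted p = 0.802) and 0.56 ± 0.33 (6 months against P75, adjusted p = 0.168).

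Across the adult span, 24 months against P75, C4b rose by 2.45 ± 0.17 (adjusted p = 1.28e-07), a 5.46-fold rise. C3ar1 followed with 1.93 ± 0.18 (adjusted p = 9.96e-07), and C3 with 1.79 ± 0.26 (adjusted p = 6.00e-05). Serping1 rose by 1.55 ± 0.12 (adjusted p = 1.94e-07). The C1q chains rose by 1.36 ± 0.10 for C1qa, 1.18 ± 0.12 for C1qb and 0.96 ± 0.10 for C1qc (adjusted p from 1.99e-07 to 4.30e-06).

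Levels can be compared between genes only per length. Per kilobase of exon the 3 C1q chains had the highest levels of the 9 genes at every age, with means at 24 months of 2835 ± 431 for C1qb, 2230 ± 336 for C1qa and 1199 ± 176 normalised reads per kilobase for C1qc (SD, n = 3). C4b came next at 24 months with 332 ± 22.6 per kilobase, followed by Serping1 with 160 ± 17.0, C3ar1 with 30.8 ± 3.79 and C3 with 29.6 ± 3.85. C3ar1 and C3 did not differ beyond their spread, and the same holds for C1ra with 16.2 ± 3.45 and C5ar1 with 13.3 ± 6.31, the lowest of the 9.

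The order of C4b and Serping1 per kilobase changed with age. Serping1 stood above C4b at 6 months, with 129 ± 4.90 against 80.9 ± 12.8 per kilobase, while at P75 the 2 genes overlapped at 54.1 ± 3.85 for Serping1 and 62.2 ± 17.1 for C4b. The C1q chains made up 89.5% ± 0.856 of the summed normalised counts of the 9 genes at P18, 85.4% ± 2.20 at P75, 82.3% ± 0.229 at 6 months, with 74.4% ± 1.92 at 24 months (SD, n = 3 each). The 3 samples of 24 months, at 72.3% to 76.1%, lay below the 3 samples of 6 months, at 82.0% to 82.5%.

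**Figure D3:**
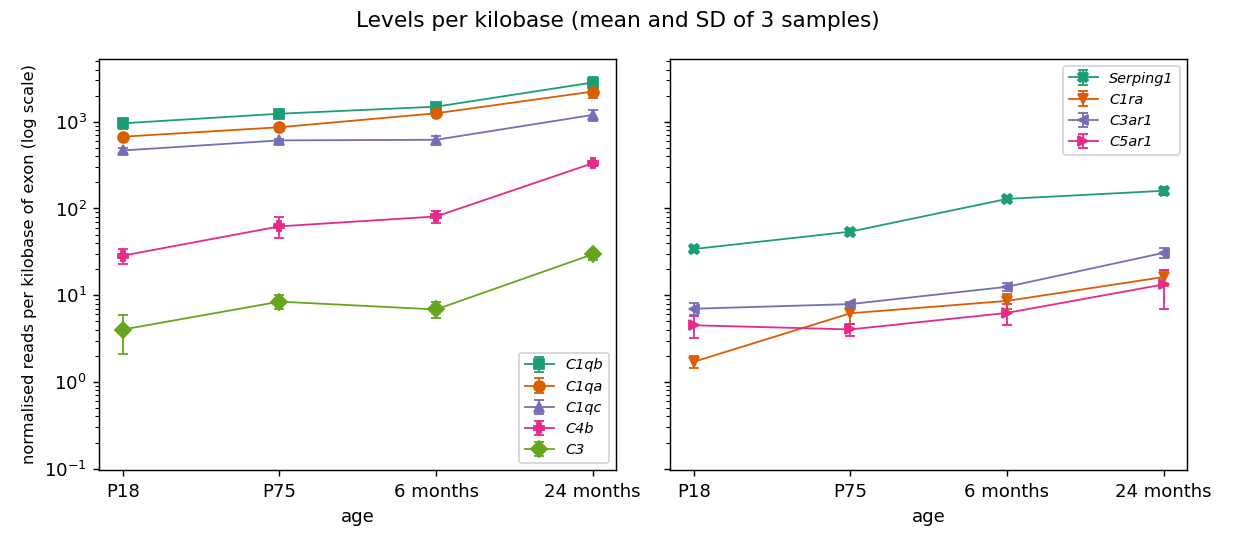
Mean normalised reads per kilobase of exon (log scale, vertical axes) of the 9 complement genes at 4 ages, with SD bars over 3 samples. The C1q chains lie highest at every age, and C4b lies at 332 at 24 months, against 80.9 at 6 months.

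Marker genes of microglia were measured in the same samples. Of the 16 genes of the microglial list, 7 rose and none fell at 24 months against 6 months, where 10.8% of all tested genes were called higher, and 14 rose and none fell at 24 months against P75, where 25.0% were. At the earlier steps 8 rose and none fell at P75 against P18, where 21.7% of all tested genes were called higher, and 6 rose and 1 fell at 6 months against P75, where 27.1% were. Their summed value ranged from 6578 to 8702 at P18, from 10585 to 12489 at P75, from 12494 to 14059 at 6 months and from 18326 to 21949 at 24 months. Among those that rose at 24 months against 6 months were Trem2, Tyrobp, Ctss and Cd68, while Cx3cr1 (0.11 ± 0.11) and P2ry12 (0.24 ± 0.15) were among the 9 that did not pass. These genes were named after their values were seen.

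Set against that microglial sum, C1qa stood at 10.6% to 11.9% in the samples of 24 months, against 9.54% to 10.4% in those of 6 months. C4b stood at 8.88% to 10.1% of the microglial sum at 24 months, against 3.05% to 3.96% at 6 months. C3 stood at 0.713% to 0.841% at 24 months, against 0.226% to 0.323% at 6 months. In these 3 genes the ages did not overlap, and the gap was wide in C3 and C4b and narrow in C1qa. The other C1q chains were apart as well. C1qb stood at 14.2% to 16.1% at 24 months, against 11.3% to 13.3% at 6 months. C1qc stood at 10.8% to 12.1% at 24 months, against 8.62% to 9.81% at 6 months.

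C3ar1 was also apart, at 0.622% to 0.707% of the microglial sum at 24 months, against 0.383% to 0.433% at 6 months. Serping1 stood lower in relation to the sum at 24 months, at 1.64% to 2.06%, against 2.11% to 2.36% at 6 months. C1ra overlapped, at 0.200% to 0.279% at 24 months and 0.171% to 0.235% at 6 months, and so did C5ar1, at 0.114% to 0.263% at 24 months and 0.0941% to 0.150% at 6 months. At P75 against P18 the C1q chains overlapped, C1qa for example standing at 7.48% to 8.59% at P75 and at 8.14% to 10.7% at P18. The part of the microglial markers in the complement values was not tested.

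**Figure D4:**
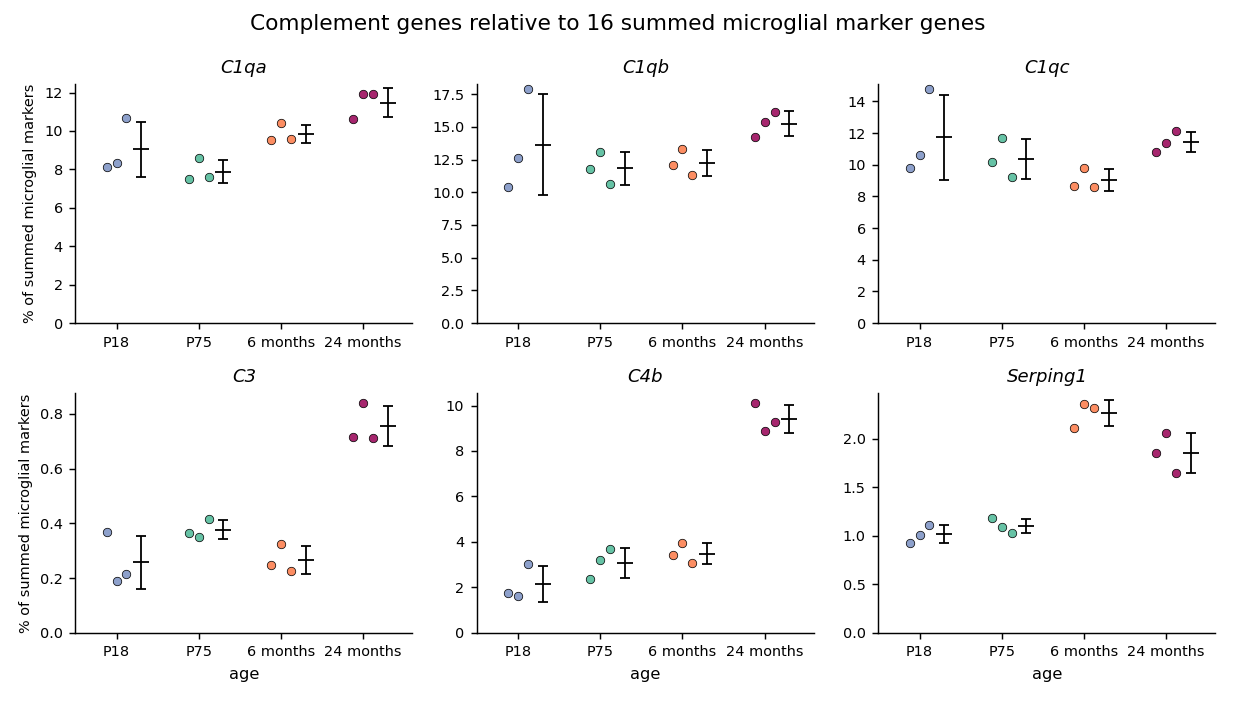
The 3 C1q chains, C3, C4b and Serping1 as a percentage of the summed value of 16 microglial marker genes (vertical axes, each from 0) in the 3 samples of each age, with mean and SD. C4b averages 9.42% at 24 months, against 3.47% at 6 months, and Serping1 averages 1.85% at 24 months, against 2.26% at 6 months.

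Other cell type lists were measured beside them. At 24 months against 6 months, 10.8% of all tested genes were called higher and 1250 of 14987 lower. The summed value of 8 choroid plexus markers was 42963 to 47615 at 24 months, against 27762 to 32112 at 6 months, with 1 of 8 genes higher and none lower. Ttr, named after its values were seen, was that gene and made up most of the sum, with means of 44404 at 24 months and 28731 at 6 months. The 10 astrocyte markers overlapped in their sum, at 149567 to 157360 at 24 months and 138009 to 160860 at 6 months, with 1 of 10 higher and 1 lower. Gfap was the higher one (0.65 ± 0.20, adjusted p = 0.0319), with means of 9083 at 24 months and 5858 at 6 months. Sox9 was the lower one (-0.38 ± 0.12, adjusted p = 0.0342, limma). Both were named after their values were seen. The border macrophage list of 8 genes summed to 300 to 374 at 24 months, against 270 to 280 at 6 months, with 1 of 8 higher and none lower.

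The 8 blood myeloid genes summed to 59.3 to 306 at 24 months, against 26.6 to 37.4 at 6 months. The sums at 24 months overlapped those of P75, 86.2 to 208, and of P18, 37.3 to 143. Only 2 of the 8 passed the filter, both higher at 24 months than at 6 months. Both had been lower at 6 months than at P75, where 3805 of 14987 tested genes were called lower. Neither was called at 24 months against P75 by limma, edgeR or DESeq2. At 24 months against 6 months, 10.8% of all tested genes were called higher and 1250 of 14987 lower. The mural cell and fibroblast list overlapped, at 4089 to 4834 at 24 months and 4184 to 4462 at 6 months, with 1 of 10 higher and 1 lower. The endothelial list overlapped as well, at 647 to 677 at 24 months and 582 to 699 at 6 months, with 0 of 8 called by limma, edgeR or DESeq2 and 1 of 8 under 0.05 before adjustment.

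The neuronal list was at 167691 to 173868 at 24 months, against 173844 to 179673 at 6 months, with 0 of 8 higher and 1 lower. The oligodendrocyte and myelin list overlapped between these ages, with 0 of 10 higher and 2 lower, whereas 7 of 10 of its genes were lower at P75 than at P18. Of the 14987 tested genes, 10.8% were called higher and 1250 lower at 24 months against 6 months. At P75 against P18, 2804 of the 14987 were called lower. The part of these lists in the complement values was not tested.

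The genes whose profile over the 12 samples was most like that of each complement gene were found by the root mean square difference of log2(value + 1) after each gene's own mean was removed, among about 12498 genes with a mean value of at least 50. For C1qa these were Ctsh (0.10), a lysosomal protease, Lag3 (0.15), an immune receptor, and C1qb (0.15). For C1qb they were C1qc (0.12), C1qa (0.15) and B2m (0.17), the light chain of MHC class I. For C1qc they were C1qb (0.12), Fcer1g (0.14), a signalling chain of Fc receptors, and Lpl (0.18), lipoprotein lipase. The median difference over all genes searched was 0.70 for C1qa, 0.65 for C1qb and 0.58 for C1qc.

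C3 and C4b had no gene as close. The nearest to C3 were Cd52 (0.40), Lyz1 (0.45) and C4b (0.48), and the nearest to C4b were Pcdhb9 (0.37), Pcdhb13 (0.45) and Gpnmb (0.45), against medians of 1.14 and 1.34 over all genes searched. Those of C1ra were Pcdhb13 (0.23), Pcdhb14 (0.27) and Pcdhb9 (0.28), members of the protocadherin beta cluster, whose similar sequences leave their counts uncertain. Serping1 was closest to Tmem35 (0.14), Sema3e (0.15) and Tmx4 (0.15). C3ar1 was closest to Serpina3n (0.17), Fbln5 (0.24) and C1qa (0.24), and C5ar1 to Oasl2 (0.29), Bst2 (0.30) and Cd68 (0.35). The points share their libraries, and the likeness is a description.

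Of 64 other genes of the complement system, 58 symbols were found in the table and 34 passed the filter on low values. Of the 34, Itgax, C4a and C1rl, named after their values were seen, passed the filter only through their samples of 24 months, and the counts here are over the 31 others. At P75 against P18, 17 of the 31 rose, 4 fell and 10 did not pass, where 21.7% of all tested genes were called higher. At 6 months against P75, 12 rose, 3 fell and 16 did not pass, where 27.1% of all tested genes were called higher. At 24 months against 6 months, 3 rose, 1 fell and 27 did not pass, where 10.8% of all tested genes were called higher. At 24 months against P75, 18 rose, 2 fell and 11 did not pass, where 25.0% of all tested genes were called higher. The median log2 fold change of the 31 was 0.20 at 24 months against 6 months, where that of the 9 genes above was 0.94.

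**Figure D5:**
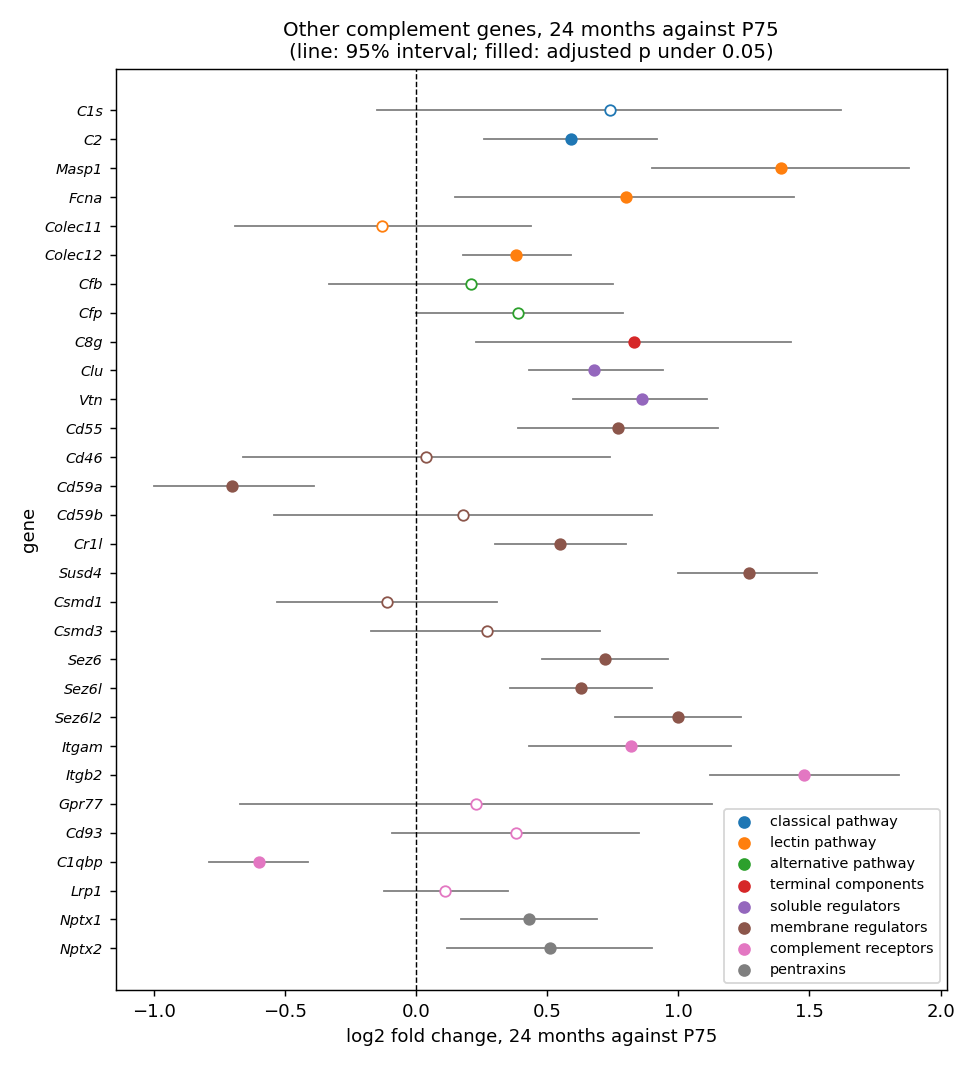
Log2 fold change at 24 months against P75 (horizontal axis) of 30 other complement genes tested, coloured by their role, with 95% intervals as lines and filled points where the adjusted p was under 0.05. Cd59a (-0.70) and C1qbp (-0.60) are the filled points below 0, and genes that passed the filter only through 24 months are left out.

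In the rest of the classical pathway, C2, which supplies the protease of the enzyme that cleaves C3, averaged 110 at 24 months and 72.9 at P75, a rise of 0.59 ± 0.16 (adjusted p = 0.00602).

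In the lectin pathway, which starts from sugars on the target, Masp1 averaged 65.7 at P18 and 26.5 at P75, then 108 at 6 months and 70.7 at 24 months. Masp1 encodes a protease of this pathway, and it fell by 1.26 at P75 against P18 (SE 0.23, adjusted p = 4.92e-04) and rose 3.99-fold at 6 months against P75 (95% interval 2.83 to 5.61, adjusted p = 4.29e-06). Fcna, which encodes the recognition protein ficolin A, fell by 1.58 at P75 against P18 (SE 0.31, adjusted p = 6.78e-04), with means of 6.06 at P75 and 19.8 at P18. Colec12, a scavenger receptor, rose by 0.38 ± 0.097 at 24 months against P75 (adjusted p = 0.00451).

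In the alternative pathway, which amplifies C3 cleavage, Cfp encodes properdin, which stabilises the enzyme that cleaves C3. Cfp averaged 237 at 24 months and 119 at 6 months, a rise of 0.95 ± 0.19 (adjusted p = 0.00383). It had fallen at 6 months against P75, with a log2 fold change of -0.56 ± 0.19 (adjusted p = 0.0194), a call lost without P75 replicate 1 or replicates 1 or 2 of 6 months (adjusted p up to 0.0834). Cfb, the protease of this pathway, did not pass in any comparison, with log2 fold changes from -0.32 to 0.26.

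Of the 7 listed genes of the terminal components, which form the membrane pore, C8g alone passed the filter, and its counts were 24.9 to 31.5 at 24 months and 11.1 to 22.1 at P75. C8g rose by 0.83 ± 0.28 at 24 months against P75 (adjusted p = 0.0244), a call lost without P75 replicate 2 or 3 or 24 months replicate 1 or 3 (adjusted p up to 0.116), and also under quantile normalization (0.64, adjusted p = 0.0623). C9 was at 0 in all 12 samples, which allows up to 3 reads in a sample, a normalised count of 2.44 to 3.56.

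Among the soluble regulators, Clu (clusterin) and Vtn (vitronectin), both known to hinder the pore, rose at P75 against P18 and again at 6 months against P75. At P75 against P18 Vtn rose by 0.75 ± 0.12 (adjusted p = 1.42e-04) and Clu by 0.61 ± 0.12 (adjusted p = 7.91e-04). At 6 months against P75 Vtn rose by 0.91 ± 0.12 (adjusted p = 1.34e-05) and Clu by 0.69 ± 0.12 (adjusted p = 1.74e-04). At 24 months against 6 months their log2 fold changes were -0.06 ± 0.12 for Vtn (adjusted p = 0.782) and -0.01 ± 0.12 for Clu (adjusted p = 0.976).

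Of 11 tested membrane regulators, 9 rose and 1 fell at P75 against P18, where 21.7% of all tested genes were called higher. Sez6l2, of a family of neuronal proteins with complement control domains, rose by 1.04 ± 0.11 in that step (adjusted p = 5.29e-06). Cd59a, which blocks the pore on the cell's own membrane, was lower at 6 months, with counts of 352 to 380 against 695 to 869 at P75 and a log2 fold change of -1.09 ± 0.14 (adjusted p = 1.27e-05). Susd4, an inhibitor of C3 cleavage, rose by 1.88 ± 0.13 at 6 months against P75 (adjusted p = 3.57e-08), and at 24 months it fell by 0.61 against 6 months (SE 0.13, adjusted p = 0.00486). Cd55, which speeds the decay of the enzymes that cleave C3, rose by 0.53 ± 0.18 at 24 months against 6 months with an adjusted p that rounds to 0.05. That call did not hold on leaving out any sample of 24 months or replicate 1 or 2 of 6 months, among other alternatives, with an adjusted p of up to 0.216 without 6 months replicate 2.

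Among the receptors, Itgam, Itgax and Itgb2 encode the integrin chains of complement receptors 3 and 4, with which phagocytes bind fragments of C3. Itgax had counts of 23.8, 41.1 and 47.2 at 24 months and of at most 6.50 in the 9 other samples, and since it passed the filter only through the samples of 24 months, no test of it is given. Itgb2 had counts of 168, 202 and 243 at 24 months and of 123, 113 and 91.5 at 6 months, and rose by 0.89 ± 0.17 (adjusted p = 0.00307).

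Itgam had risen at 6 months against P75, by 0.70 ± 0.18 (adjusted p = 0.00385), and differed by 0.11 ± 0.18 at 24 months against 6 months (adjusted p = 0.706). C1qbp, which encodes a mainly mitochondrial protein that also binds C1q, was lower at 6 months, with counts of 1507 to 1714 against 2626 to 3018 at P75 and a log2 fold change of -0.83 ± 0.090 (adjusted p = 2.35e-06). Of the pentraxins, relatives of the C1q ligand C-reactive protein, the neuronal Nptx1 rose by 0.89 ± 0.12 at P75 against P18 (adjusted p = 4.01e-05).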

How the data were processed

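The authors deposited signal values, which are gene read counts scaled by a size factor for each sample and rounded, as the values themselves show. TopHat, HTSeq, DESeq and the mouse build mm9 are named in the submitters' processing notes, without versions. RNA extraction, library construction, strand setting and sequencing batch are not given in the sources used here, so no within-batch value can be given, and overlapping genes and paralogs (C4a and C4b, C1ra and C1rb) are uncertain. Whole reads were recovered from the deposited signal values: 100% of the values in each column were whole within a tolerance of 0.0061, while 3 columns had a step less than 1% away from 1, for which all values of the column were used to find it.

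Values were tested as log2(value + 1) with limma 3.58.1 in R 4.3.3 (mean-variance trend, all 12 samples, 4 ages), two-sided, with Benjamini-Hochberg adjustment over all 14987 tested genes and a threshold of 0.05. The test was checked on simulated counts, in which all genes had the same spread setting and only genes above a minimum mean were changed. That check does not cover genes that are noisier or that lie below that mean. Alternatives were edgeR 4.0.16 and DESeq2 1.42.0 on the recovered reads (3185 and 3269 genes called at 24 months against 6 months), pseudocounts of 0.5 and 5, other filters, TMM and quantile normalization, a fit of only the ages compared, a replicate block and leaving out each sample.

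Exon lengths are the union of exons in GENCODE vM21 (GRCm38), and promoters are RefSeq's (GRCm38.p6), so neither is of the mm9 build of the counts. Motif matches were read on both strands. The complement genes and all lists (8 roles of other complement genes, 9 cell types) were chosen with earlier results of these data known. In each comparison and list, up to 2 other complement genes that passed, with the lowest adjusted p, could be named; C1s, Cfb, C4a at 24 months against 6 months, C9 and genes given as not passing were named after their values were seen. Intervals and floors cover counting error or the spread between these samples only, since reads copied from 1 molecule are not independent. Replicates of an age differed by more than sampling noise, and none was counted as a duplicate. Some listed genes are not reported here by name.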

Additional observations from a re-analysis of the deposited data

How the results depend on the processing

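Over 22 alternatives per comparison (21 for genes below the filter on a mean of 50), 750 of 784 values of the 9 genes kept their direction and side of the threshold, 21 fell below it, 9 passed it and 4 reversed. The number of genes higher at 6 months against P75 was 5 instead of 3 when only the 2 ages were fitted. On leaving out each sample, the numbers higher were 6 to 7 (P75 against P18), 3 to 5 (6 months against P75), 6 to 8 (24 months against 6 months) and 9 to 9 (24 months against P75), those lower were 0 to 0, and 9 to 9 differed at some age. Reversals touched values near 0 that did not pass: C5ar1 at P75 against P18 (0.08 without P18 replicate 3, and -0.32 to 0.08 over all samples left out) and C1qc at 6 months against P75 (-0.0048 under quantile normalization, -0.00026 without P75 replicate 1, -0.04 without 6 months replicate 2, and -0.04 to 0.09 over all samples left out). The cause was not tested.

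Samples of different ages with the same replicate number had correlations of deviations of -0.185 to 0.165 (median -0.044). Samples with unlike numbers had -0.149 to 0.189 (median 0.005). Same-number pairs of P75 and 6 months were at 0.147, 0.093 and 0.165, and those of 6 months and 24 months at -0.185, -0.058 and -0.062. Deviations were taken within only 3 samples per age, so these values cannot decide whether the numbers pair the samples. With the replicate block, 7, 3, 7 and 9 genes were higher in the comparisons in the order above, 0 were lower and 9 differed at some age, and C5ar1 at 24 months against 6 months no longer passed (0.99, adjusted p = 0.0678).

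The count of all genes called at 24 months against 6 months, 2876, was 1244 to 3963 on leaving out each sample. Depth limits C1ra at P18 (4 to 6 reads) and C5ar1. Quantile normalization shifted the median of all genes by less than 0.1 log2 units.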
